A study of Mus musculus with 3 samples.

Results

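The genes described here encode 39 proteins of the lysosome and its control: 11 proteases, 15 glycosidases and other glycan hydrolases, 7 lipid enzymes and lipid-handling proteins, 5 membrane proteins and the transcription factor Tfeb. They were taken by symbol from the 21983 genes of the count table, and all 39 were at 1 CPM or more in each of the 3 libraries, so none was lost to the filter on low values. The study sequenced RNA from the intestine of wild-type mouse pups, with 1 library for each of 3 groups. Control pups were fed by their dam, received PBS and went through no hypoxia or cold. NEC pups were a model of necrotizing enterocolitis, an inflammatory bowel disease of the newborn: they were gavaged for 96 h with 40 µl of 33% formula at intervals of 4 h, and at intervals of 12 h were put for 100 s into 99.9% nitrogen and then for 10 min at 4 °C, with PBS as vehicle. PCI34051+NEC pups went through the same model and were fed PCI34051, an inhibitor selective for the histone deacetylase HDAC8, once a day at 10 mg/kg for 5 days. The age of the pups, the stretch of intestine and how many pups went into each library are not stated in the labels.

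Lysosomes are acidic organelles that break down material taken up from outside the cell or delivered by autophagy. Soluble hydrolases reach them by way of mannose phosphate receptors, a proton pump keeps them acid, and heavily glycosylated proteins line their membrane. In suckling rodents the enterocytes of the distal small intestine hold large lysosomal vacuoles, in which milk proteins taken up by endocytosis are digested within the cell. Tfeb and related MiT/TFE factors activate many lysosomal genes through an E-box element in their promoters.

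Each group has a single library, so differences lack replicates, p-values are left out, and the values are those of the libraries alone. Levels are TMM-normalised CPM, read counts scaled by library size, log2 folds compare log2(CPM + 1) values, and 2-fold on that scale is the threshold for a call. Fold ratios in the text are plain ratios of CPM, and the range in parentheses is an exact 95% interval that covers counting error only. Depth was 15076413 counts for control, 10650638 for NEC and 16497580 for PCI34051+NEC. The NEC library stood apart from the others: mitochondrially encoded genes took 32.4% of its counts, and only 4.88% (control) and 3.73% (PCI34051+NEC) elsewhere. Feeding, hypoxia, cold and any disease differ together between the control and NEC pups and cannot be told apart. In bulk tissue, fewer cells of a type and less RNA per cell cannot be told apart either.

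Relative to control, the NEC library held less RNA of lysosomal genes, across proteases, glycan hydrolases, lipid enzymes and membrane proteins alike. Of the 39 genes, 33 were lower by 2-fold or more and none was higher by as much, whereas among all 14627 genes measured 22.9% were lower to that extent and 24.2% higher, 47.1% together. Their median log2 fold was -2.45, and that of all genes measured was -0.03. As a plain ratio, the median of the 39 genes was 5.50-fold lower in NEC than in control. The 6 genes within 2-fold were the proteases Ctsc and Ctsf, the glycan hydrolases Idua and Ids, the channel gene Mcoln1 and Tfeb.

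Summed over the 39 genes, the level was 47369 CPM (control), 6451 CPM (NEC) and 35514 CPM (PCI34051+NEC). In raw counts the genes took 4.99% of the control library (4.98 to 5.00, Wilson interval), 0.663% of the NEC library (0.658 to 0.668) and 3.28% of the PCI34051+NEC library (3.27 to 3.29). Proteases made up most of this share in the control library, at 3.19% of all counts, and glycan hydrolases came next at 1.17%. Both were at a fraction of that in the NEC library, at 0.336% and 0.205%.

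**Figure D1:**
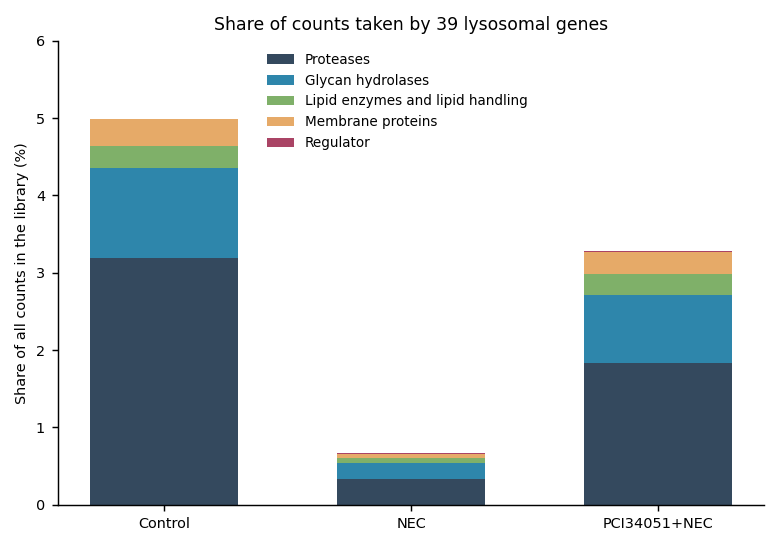
Share of all counts of each library (y axis, %) taken by the 39 lysosomal genes, stacked by role, with 1 bar per library. The bars stand at 4.99% (control), 0.663% (NEC) and 3.28% (PCI34051+NEC), with proteases the tallest block in each.

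Per kilobase of exon the genes spanned a wide range. In CPM per kilobase, legumain (Lgmn) was highest of the 39 in every library, at 5079.8, 465 and 3523 (control, NEC, PCI34051+NEC), and among all 21926 genes with an annotated length it ranked 7, 38 and 7. Next in the control library were Ctsz (1319), Hexa (1089), Ctsb (1036) and Ctsa (843), and the lowest was Sgsh (2.69). Of the 39 genes, 12 were among the 100 highest of all genes per length in control, 1 in NEC and 10 in PCI34051+NEC. The order within the set was much alike across libraries, with a Spearman correlation of 0.93 between the control and NEC levels of the 39 genes, which share annotation and exon lengths.

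**Figure D2:**
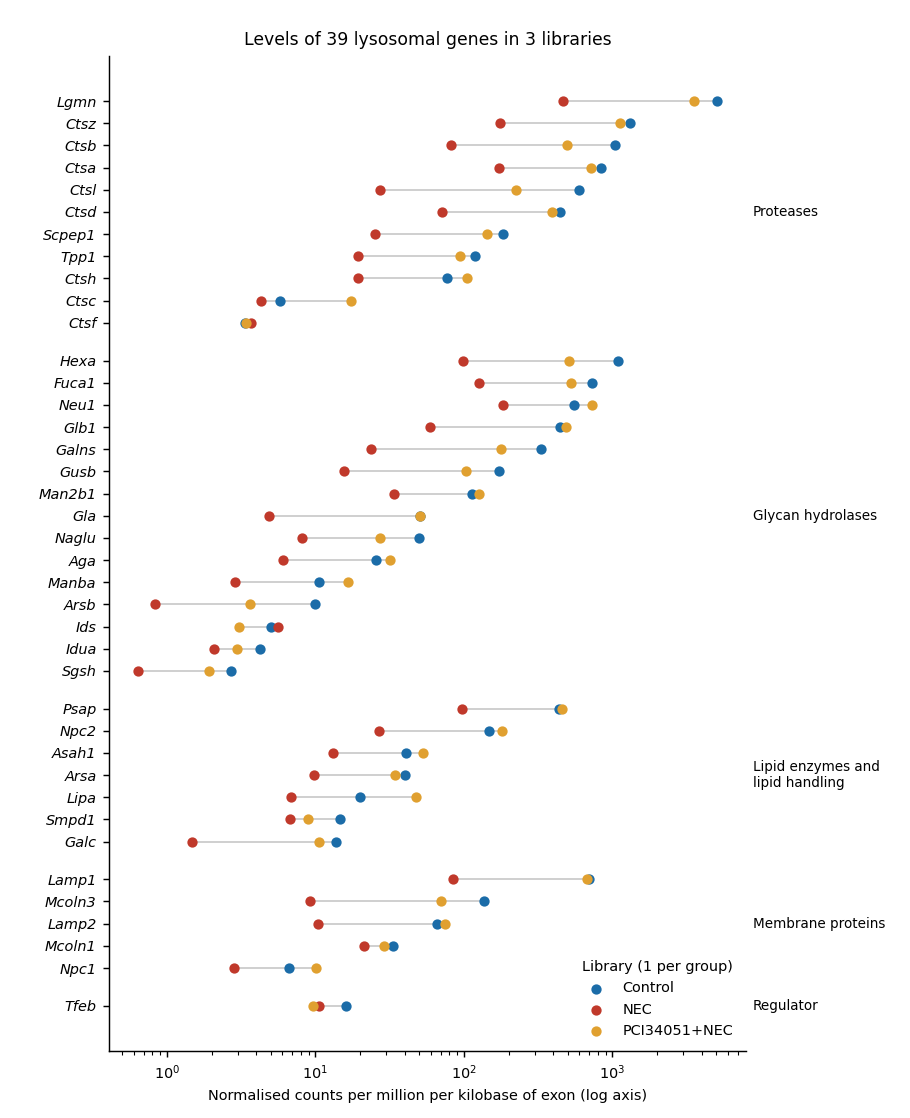
Level of each of the 39 genes in CPM per kilobase of exon (x axis, log scale) in each of the 3 libraries (1 point each), ordered within each role by the control level. The NEC points lie to the left for nearly all genes, from 465 for Lgmn to 0.641 for Sgsh, while Ctsf, Ids and Tfeb show little separation or another order.

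Among the proteases, 9 of 11 passed 2-fold toward lower levels in NEC, with a median log2 fold of -2.62. Lgmn, an endopeptidase that cuts after asparagine and also processes cathepsins (ENSMUSG00000021190.14, chromosome 12, 102394084 to 102439813, minus strand, mm10), was at 11800.3 CPM (control), 1081 CPM (NEC) and 8183 CPM (PCI34051+NEC). The NEC level was 10.9-fold lower (10.7 to 11.1) than the control level. Ctsl, a cysteine endopeptidase (ENSMUSG00000021477.9, chromosome 13, 64359337 to 64370890, minus strand), had the lowest NEC-to-control ratio of the 39 genes, at 3848 CPM (control), 177 CPM (NEC) and 1447 CPM (PCI34051+NEC). That was 21.8-fold lower (20.8 to 22.8) in the NEC library. Ctsb, a cysteine protease with endopeptidase and carboxypeptidase activity (ENSMUSG00000021939.8, chromosome 14, 63122462 to 63145923, plus strand), was at 6266, 492 and 3016 CPM in the same order of libraries and 12.7-fold lower (12.4 to 13.1) in NEC. For all 3 of these genes the PCI34051+NEC level lay between the other libraries.

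The carboxypeptidases and the aspartic protease showed smaller ratios. Cathepsin Z (Ctsz), a cysteine carboxypeptidase, was at 1901, 253 and 1620.2 CPM, so that it was 7.52-fold lower (7.23 to 7.82) in NEC. Cathepsin A (Ctsa), a serine carboxypeptidase that also shields Glb1 and Neu1 from degradation, was at 3976, 809 and 3359 CPM, 4.91-fold lower (4.80 to 5.02) in NEC. Ctsd, the main aspartic protease of the lysosome, was at 1037, 168 and 925 CPM and 6.16-fold lower (5.87 to 6.47) in NEC. Scpep1, another serine carboxypeptidase, and Tpp1, which removes tripeptides from the N-terminus, were alike in size of ratio. Scpep1 was at 387, 52.5 and 299.6 CPM, and Tpp1 at 613, 100.5 and 489 CPM. Of the Ctsd exons, 34.4% of bases are shared with Gm49369, a gene annotated on the same strand, so that its counts may be incomplete.

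Of the 11 proteases, Ctsh and Ctsc were those above the control in PCI34051+NEC by more than counting error. Ctsh, an aminopeptidase, was at 348, 87.2 and 469 CPM, 3.99-fold lower (3.72 to 4.28) in NEC and 1.35-fold higher (1.30 to 1.40) in PCI34051+NEC than in control. Ctsc, a dipeptidyl peptidase that activates granule proteases of immune cells, was at 33.7, 25.0 and 100.3 CPM. In NEC it was 1.35-fold lower (1.16 to 1.56), within 2-fold, and it was 2.97-fold higher (2.69 to 3.29) in PCI34051+NEC than in control, the highest such ratio of the 39 genes. Ctsf, a cysteine protease, was low and alike in all libraries, at 16.9, 18.6 and 17.1 CPM, and each of its 3 ratios had an interval that included 1.

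Of 15 glycosidases and other glycan hydrolases, 13 were lower in NEC by 2-fold or more, with a median log2 fold of -2.52. The 5 with the lowest NEC-to-control ratios were Galns, Arsb, Hexa, Gusb and Gla. Galns, a sulfatase of keratan and chondroitin sulfate (ENSMUSG00000015027.11, chromosome 8, 122578242 to 122611463, minus strand), was at 872 CPM (control), 62.6 CPM (NEC) and 468 CPM (PCI34051+NEC), 13.9-fold lower (12.9 to 15.1) in NEC. Arsb, the arylsulfatase of dermatan sulfate, was at 59.8, 5.02 and 21.8 CPM, 11.9-fold lower (9.07 to 15.9) in NEC, on 951, 55 and 332 counts. Hexa, the alpha subunit of beta-hexosaminidase (ENSMUSG00000025232.8, chromosome 9, 59539540 to 59565109, plus strand), was at 2173, 196 and 1021 CPM, 11.1-fold lower (10.6 to 11.6) in NEC. Gusb, beta-glucuronidase, was at 782, 71.1 and 469 CPM, and Gla, alpha-galactosidase A, at 166, 15.9 and 164 CPM. In NEC they were 11.0-fold and 10.5-fold lower, but in the PCI34051+NEC library Gla was at the control level and Gusb below it.

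A further 6 enzymes, which act on glycoproteins and in part on glycolipids, were between 3.03-fold and 7.41-fold lower in NEC. Glb1, beta-galactosidase, was at 1326, 179 and 1473 CPM, 7.41-fold lower (7.07 to 7.76) in NEC, and Fuca1, the fucosidase, at 2386, 415 and 1736 CPM, 5.76-fold lower (5.58 to 5.94) in NEC. Neu1, the sialidase that shares a complex with Ctsa and Glb1, was at 2070.1, 684 and 2736 CPM, 3.03-fold lower (2.95 to 3.10) in NEC. Man2b1, alpha-mannosidase, was at 915, 270.1 and 1013 CPM, and Manba, beta-mannosidase, at 73.8, 20.1 and 115 CPM. In the NEC library these were 3.39-fold and 3.67-fold lower. Aga, which splits the asparagine-sugar link, was at 59.8, 14.0 and 73.6 CPM. The 3 members of the complex of Ctsa, Glb1 and Neu1 thus differed in NEC by 4.91-fold, 7.41-fold and 3.03-fold.

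A further 4 enzymes of heparan sulfate breakdown, beside Gusb above, ranged from lower in NEC by 6.05-fold (Naglu) to no lower level (Ids). Naglu, an N-acetylglucosaminidase, was at 132, 21.7 and 72.8 CPM, 6.05-fold lower (5.29 to 6.95) in NEC, and Sgsh, the sulfamidase, at 11.9, 2.83 and 8.54 CPM, on only 31 counts in the NEC library. Idua, alpha-iduronidase, was at 17.9, 8.68 and 12.5 CPM, with a plain ratio of 2.06-fold (1.63 to 2.63) that lay within 2-fold after the pseudocount. Ids, the iduronate sulfatase, was at 25.8, 28.6 and 15.5 CPM. It was the gene of this group with no lower level in NEC, its ratio to control having an interval that included 1, and it was lower in the PCI34051+NEC library than in either other. Sgsh and Idua share exonic bases with genes on the opposite strand (Card14 for Sgsh, and Dgkq and Slc26a1 for Idua), and the strand setting of the counting is not given.

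All 7 lipid enzymes and lipid-handling genes were lower in NEC by 2-fold or more, with a median log2 fold of -2.02. Galc, which splits galactose from galactosylceramide, was at 207 CPM (control), 21.9 CPM (NEC) and 158 CPM (PCI34051+NEC) and 9.42-fold lower (8.26 to 10.8) in NEC. Npc2, the soluble protein that hands cholesterol to Npc1, was at 808, 147 and 975 CPM, 5.50-fold lower (5.22 to 5.79) in NEC. Psap, the precursor of the saposins that present sphingolipids to their hydrolases, was at 1204, 265 and 1249 CPM, 4.53-fold lower (4.36 to 4.72) in NEC. Arsa, the sulfatase of sulfatide, was at 149, 36.0 and 127 CPM, and the acid ceramidase Asah1 at 139, 44.6 and 179 CPM. Their NEC levels were 4.13-fold and 3.12-fold lower than control.

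Lipa and Smpd1 had the smallest NEC-to-control differences of these 7 genes and then parted in the PCI34051+NEC library. Lipa, the acid lipase that frees cholesterol and fatty acids from lipoprotein esters (ENSMUSG00000024781.16, chromosome 19, 34492318 to 34527474, minus strand), was at 135 CPM (control), 46.4 CPM (NEC) and 321 CPM (PCI34051+NEC). It was 2.90-fold lower (2.64 to 3.21) in NEC and 2.38-fold higher (2.26 to 2.50) in PCI34051+NEC than in control. Smpd1, acid sphingomyelinase, was at 48.8, 22.5 and 29.6 CPM, 2.17-fold lower (1.88 to 2.52) in NEC, and its PCI34051+NEC level was nearer to NEC than to control. The Smpd1 fold lay at the threshold, with a log2 fold of -1.09 in NEC against control.

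Among the membrane proteins the structural and transport genes were lower in NEC by 2-fold or more, and Mcoln1 was within 2-fold. Lamp1, an abundant glycoprotein of the lysosomal membrane (ENSMUSG00000031447.7, chromosome 8, 13159161 to 13175338, plus strand), was at 1855 CPM (control), 225 CPM (NEC) and 1797 CPM (PCI34051+NEC), 8.24-fold lower (7.91 to 8.59) in NEC. Lamp2, its relative that also takes part in autophagy, was at 634, 99.7 and 717 CPM, 6.36-fold lower (5.97 to 6.77) in NEC. Npc1, the cholesterol exporter, was at 74.7, 32.0 and 114 CPM, 2.34-fold lower (2.07 to 2.64) in NEC. The paralogous cation channels Mcoln1 and Mcoln3 differed from each other. Mcoln3, a channel of endosomes and lysosomes (ENSMUSG00000036853.5, chromosome 3, 146117450 to 146141806, plus strand), was at 474 CPM (control), 31.8 CPM (NEC) and 243 CPM (PCI34051+NEC), 14.9-fold lower (13.4 to 16.7) in NEC, second to Ctsl. Mcoln1, the channel that releases lysosomal calcium, was at 252, 160.1 and 221 CPM, 1.57-fold lower (1.49 to 1.66) in NEC. Lamp2, Gla and Ids lie on chromosome X, and the sex of the pups is not in the labels.

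Tfeb, the transcription factor that drives lysosomal genes (ENSMUSG00000023990.18, chromosome 17, 47737030 to 47792419, plus strand), was at 90.7 CPM (control), 59.7 CPM (NEC) and 54.9 CPM (PCI34051+NEC). It was 1.52-fold lower (1.38 to 1.67) in NEC than in control and 1.65-fold lower (1.52 to 1.80) in PCI34051+NEC than in control, while its NEC and PCI34051+NEC levels differed by less than their counting error, so that it did not share the higher PCI34051+NEC level of most of the 39 genes. Once the dependence on GC content and exonic length was taken out, its log2 fold of NEC against control was -1.47 in place of -0.59, and that of PCI34051+NEC against NEC was 0.72 in place of -0.12. Of the 18 measured other MiT/TFE factors and genes of lysosomal mTORC1 signalling, 9 were lower and 1 higher in NEC by 2-fold or more. Their median log2 fold was -0.85, and among all genes measured 22.9% were lower and 24.2% higher to that extent. Tfec, a member of the same factor family, was at 182, 24.6 and 100.4 CPM. Tfe3, named here after its values were seen, was at 42.3, 36.9 and 44.8 CPM. Rragd, a GTPase that recruits mTORC1 to lysosomes and is a target of these factors, was at 145, 26.4 and 134 CPM, and the anchor gene Lamtor1 at 165, 38.4 and 151 CPM.

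Because these factors bind an E-box within the so-called CLEAR element, promoter windows of the 39 genes were searched for it. RefSeq windows on GRCm38.p6, from 250 bases before to 50 bases after a start, were at hand for 33 of the 39 genes (38 windows) and not for Ctsb, Ctsh, Aga, Galns, Asah1 and Npc1. The core CACGTG, which reads the same on both strands, was in the windows of 12 of the 33 genes (36.4%), against 8.09% of 27025 genes with a window. The longer form TCACGTGA, which contains the core, was in those of 4 of the 33 (12.1%), namely Ctsa, Ctsd, Gla and Mcoln1, against 1.12% of all genes. The 10-base form of the element was in none of the 33, against 0.370% of all genes. At so small a share, a set of 33 genes cannot tell an equal share from a lower one. A gene counted if any of its windows held a match, and Ctsa and Lgmn each also had a window without one. The 38 windows were richer in GC, with a median of 58.3% against 52.7% for all windows, and the part of this in the shares was not tested. The 250 bases before the start are shown 5′ to 3′ on the gene's strand for those 4 genes, and for Lamp1, which held 4 copies of the core, the highest number of the 38 windows, with each core or longer form in capitals.
Gla, chrX:134601006-134601255, minus strand: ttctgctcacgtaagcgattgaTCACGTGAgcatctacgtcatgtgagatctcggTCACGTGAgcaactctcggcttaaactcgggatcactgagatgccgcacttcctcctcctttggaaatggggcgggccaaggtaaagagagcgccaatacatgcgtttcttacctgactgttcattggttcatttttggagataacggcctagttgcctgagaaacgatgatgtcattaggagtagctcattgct
Ctsd, chr7:142387828-142388077, minus strand: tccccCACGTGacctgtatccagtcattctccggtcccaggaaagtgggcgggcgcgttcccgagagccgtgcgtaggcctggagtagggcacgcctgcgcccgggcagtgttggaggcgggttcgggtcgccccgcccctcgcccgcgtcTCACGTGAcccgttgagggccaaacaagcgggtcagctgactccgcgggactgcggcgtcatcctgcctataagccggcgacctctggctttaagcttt
Ctsa, chr2:164833523-164833772, plus strand: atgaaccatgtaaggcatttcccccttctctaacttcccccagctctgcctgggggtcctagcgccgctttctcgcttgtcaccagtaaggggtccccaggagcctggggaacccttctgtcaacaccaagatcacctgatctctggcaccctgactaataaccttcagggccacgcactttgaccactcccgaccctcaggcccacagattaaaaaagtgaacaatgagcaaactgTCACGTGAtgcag
Mcoln1, chr8:3500269-3500518, plus strand: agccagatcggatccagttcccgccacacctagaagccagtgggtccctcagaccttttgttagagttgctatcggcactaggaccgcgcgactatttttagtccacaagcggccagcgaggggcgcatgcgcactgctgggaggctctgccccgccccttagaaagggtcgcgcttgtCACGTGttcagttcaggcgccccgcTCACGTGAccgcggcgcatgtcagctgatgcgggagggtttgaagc
Lamp1, chr8:13158911-13159160, plus strand: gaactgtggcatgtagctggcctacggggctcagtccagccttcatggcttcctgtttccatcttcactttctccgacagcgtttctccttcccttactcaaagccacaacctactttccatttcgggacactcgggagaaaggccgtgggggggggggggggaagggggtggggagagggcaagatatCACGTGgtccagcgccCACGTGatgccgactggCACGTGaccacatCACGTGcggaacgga
The longer form occurred 2 times in Gla, first 228 bases before the start, and began 99 bases before it in Ctsd, 13 in Ctsa and 46 in Mcoln1. In Lamp1 the 4 cores began 61, 45, 28 and 15 bases before the start. These 5 genes did not share a size of difference: Gla was 10.5-fold and Lamp1 8.24-fold lower in NEC, and Mcoln1 1.57-fold. Over the 12 genes with the core the median log2 fold of NEC against control was -2.58, with 10 at least 2-fold lower. Over the 21 genes with a window and no core it was -2.45, with 17 at least 2-fold lower as well. A match describes letters in a window and not binding. The element was itself defined from promoters of lysosomal genes, so its higher share among such genes is not an independent result.

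Setting PCI34051+NEC beside NEC asks about the inhibitor within the model. It shares the NEC library with the comparison above. Of the 39 genes, 33 were at least 2-fold higher in the PCI34051+NEC library and none was 2-fold lower, whereas 25.0% of 14410 genes measured were higher and 25.6% lower, 50.6% together. The median log2 fold was 2.32, against 0.01 for all genes. The highest ratios were those of Gla, 10.3-fold higher (8.87 to 12.1), Glb1, 8.23-fold higher (7.86 to 8.62), and Ctsl, 8.19-fold higher (7.81 to 8.58). Lamp1 was 7.98-fold higher (7.66 to 8.32), Mcoln3 7.66-fold higher (6.86 to 8.57) and Lgmn 7.57-fold higher (7.43 to 7.71). Within 2-fold were Ctsf, Idua, Ids, Smpd1, Mcoln1 and Tfeb. Ids was lower in PCI34051+NEC, at a ratio of 0.542 (0.456 to 0.644), and its log2 fold of -0.84 became -1.33 once the dependence on GC content and exonic length was taken out.

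Set against the control library, the PCI34051+NEC library had lysosomal genes both above and below. Of the 39 genes, 4 were at least 2-fold lower (Ctsl, Ctsb, Hexa and Arsb) and 2 at least 2-fold higher (Ctsc and Lipa). These shares of 10.3% and 5.13% were near those among all 13652 genes measured, of which 6.55% were lower and 6.55% higher, 13.1% together. The median log2 fold was -0.23, with 0.00 for all genes. With total-count scaling 7 genes were at least 2-fold lower, Naglu, Galns and Mcoln3 in addition, at a median of -0.42. The median of all genes was then -0.18, and the share of all genes past 2-fold under that scaling is not given here. The PCI34051+NEC library rests on matching a column name that did not repeat the sample's description letter for letter.

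By role, the summed level of the proteases was lower in PCI34051+NEC than in control and that of the lipid genes slightly higher, though the lipid genes took 0.283% (control) and 0.280% (PCI34051+NEC) of raw counts, so this order turns with total-count scaling. Proteases summed to 30228 CPM in control and 19927 CPM in PCI34051+NEC, a ratio of 0.659, and glycan hydrolases to 11072 and 9401 CPM, a ratio of 0.849. Membrane proteins had a ratio of 0.940 and lipid genes one of 1.13. The abundant proteases set the first of these: Ctsl was 2.66-fold lower (2.62 to 2.70), Ctsb 2.08-fold lower (2.05 to 2.10) and Lgmn 1.44-fold lower (1.43 to 1.45) in PCI34051+NEC than in control. Arsb was 2.74-fold lower (2.42 to 3.12) and Hexa 2.13-fold lower (2.09 to 2.17), the latter within 2-fold once the dependence on GC content and exonic length was taken out. Mcoln3 stood just inside 2-fold, at 1.95-fold lower (1.87 to 2.03).

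The interval of the PCI34051+NEC-to-control ratio included 1 for Ctsf and Gla and lay above or below 1 for the other members. How often it does so over all genes was not counted, so this cannot be read as a trait of the lysosomal genes. Beside Ctsc, Lipa and Ctsh, the genes above control included Manba, 1.56-fold higher (1.45 to 1.68), Npc1, 1.52-fold higher (1.41 to 1.64), Neu1, 1.32-fold higher (1.30 to 1.34), Asah1, Aga and Npc2. Glb1, Man2b1, Psap and Lamp2 were also above control, by at most 1.13-fold, but below it with total-count scaling, and Ctsd and Lamp1, just below control, were just above it once the dependence on GC content and exonic length was taken out. How far such ratios would vary between pups of 1 group was not measured.

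**Figure D3:**
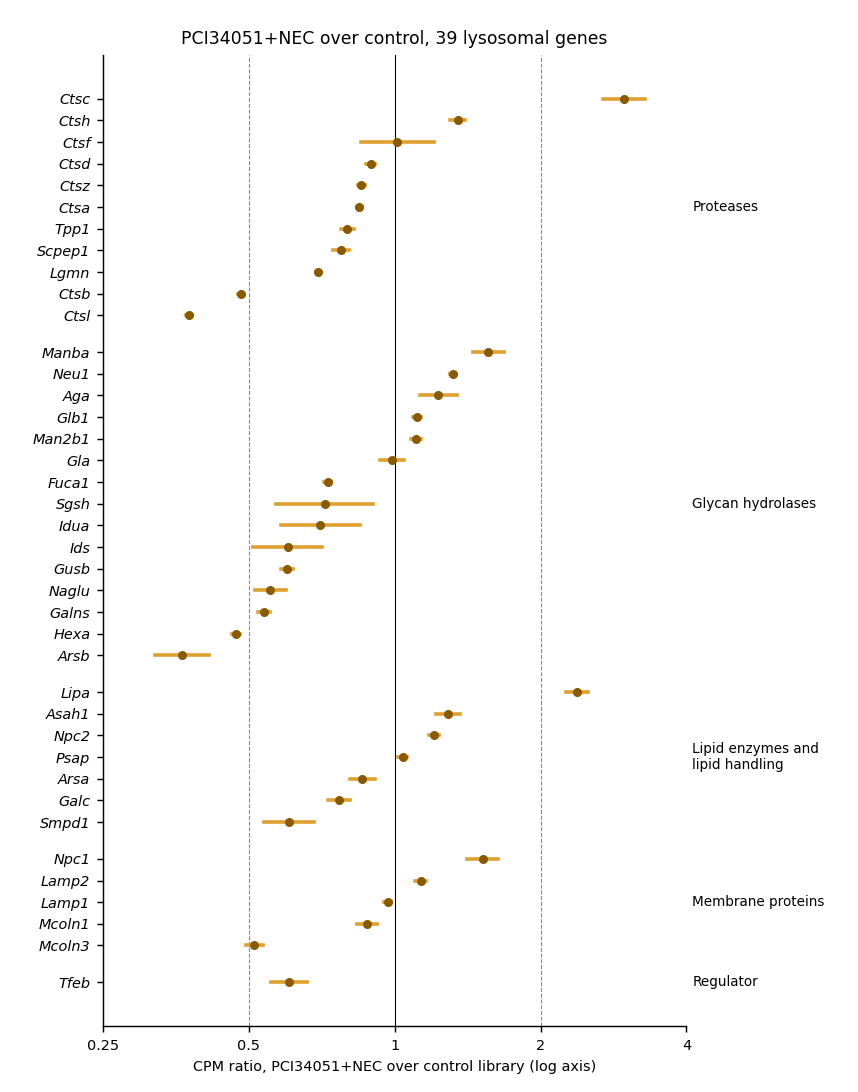
Ratio of CPM in the PCI34051+NEC library to the control library for each of the 39 genes (x axis, log scale), with exact 95% counting intervals as bars, grouped by role and ordered by the ratio; dashed lines mark 2-fold. Ctsc (2.97) and Lipa (2.38) lie right of the upper line, and Arsb (0.364), Ctsl (0.376), Hexa (0.470) and Ctsb (0.481) left of the lower one.

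Other genes of the lysosome were mostly lower in the NEC library too, where 22.9% of all genes measured were lower by 2-fold or more and 24.2% higher. Of 20 measured other hydrolases and cofactors, 16 were lower and 1 higher by 2-fold or more, at a median log2 fold of -1.80. Ctss, a cathepsin of antigen presentation, was at 585, 63.4 and 534 CPM, and Ppt1, which removes palmitate from proteins, at 138, 11.8 and 86.0 CPM. The exception was Ctsk, the collagen-degrading cathepsin, named after its values were seen, at 5.60, 12.3 and 6.63 CPM. Of 16 measured other membrane proteins, 10 were lower by 2-fold or more and none higher (median -1.47). The sialic acid exporter Slc17a5 was at 1699, 125 and 882 CPM, and Laptm4b at 509.8, 53.2 and 384 CPM.

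Genes of acidification, sorting and autophagy were lower in NEC in part, beside 22.9% lower and 24.2% higher by 2-fold or more among all genes measured. Of 18 measured subunits of the vacuolar ATPase, the proton pump, 11 were lower and 1 higher in NEC by 2-fold or more, at a median of -1.50. Atp6v1a, a catalytic subunit, was at 252, 61.2 and 249 CPM, and Atp6v1e1 at 269, 55.0 and 222 CPM. The higher gene was Tcirg1, a membrane subunit isoform known from osteoclasts, named after its values were seen, at 304, 692 and 319 CPM. Of 12 genes of enzyme sorting and maturation, 9 were lower by 2-fold or more and none higher (median -1.76), among them Igf2r, the large mannose phosphate receptor, at 547, 114 and 419.6 CPM, and the Golgi adaptor Gga2 at 336, 57.5 and 245 CPM. Of 17 autophagy genes, 7 were lower by 2-fold or more and none higher, with a median of -0.77, and Gabarap was at 611, 113 and 537 CPM.

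Of 4 measured cystatins and stefins, which inhibit cathepsins, none was 2-fold higher in NEC on the log2(CPM + 1) scale. On that scale 2 were at least 2-fold lower: Cstb, at 372, 62.3 and 320.3 CPM, and Cst6, at 167, 22.2 and 140.4 CPM. Stfa1, named after its values were seen, had only 1, 11 and 6 counts. Its plain ratio of NEC to control was above 2-fold, and its log2 fold was 0.92 after the pseudocount. Cst3, the secreted cystatin C, was at 171, 136 and 149 CPM and within 2-fold throughout. Among all genes measured, 22.9% were lower and 24.2% higher in NEC than in control by 2-fold or more. Against NEC, the PCI34051+NEC library had 16 of 20 other hydrolases, 9 of 16 other membrane proteins, 10 of 18 ATPase subunits, 7 of 12 sorting genes, 9 of 17 autophagy genes, 9 of 17 MiT/TFE and mTORC1 genes and 2 of 4 inhibitors at least 2-fold higher, where 25.0% of all genes were. At least 2-fold lower there were 1 ATPase subunit (Tcirg1), 1 sorting gene (Gga3) and 1 mTORC1 gene (Rptor), the last 2 also named after their values were seen. Among all genes 25.6% were lower to that extent.

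**Figure D4:**
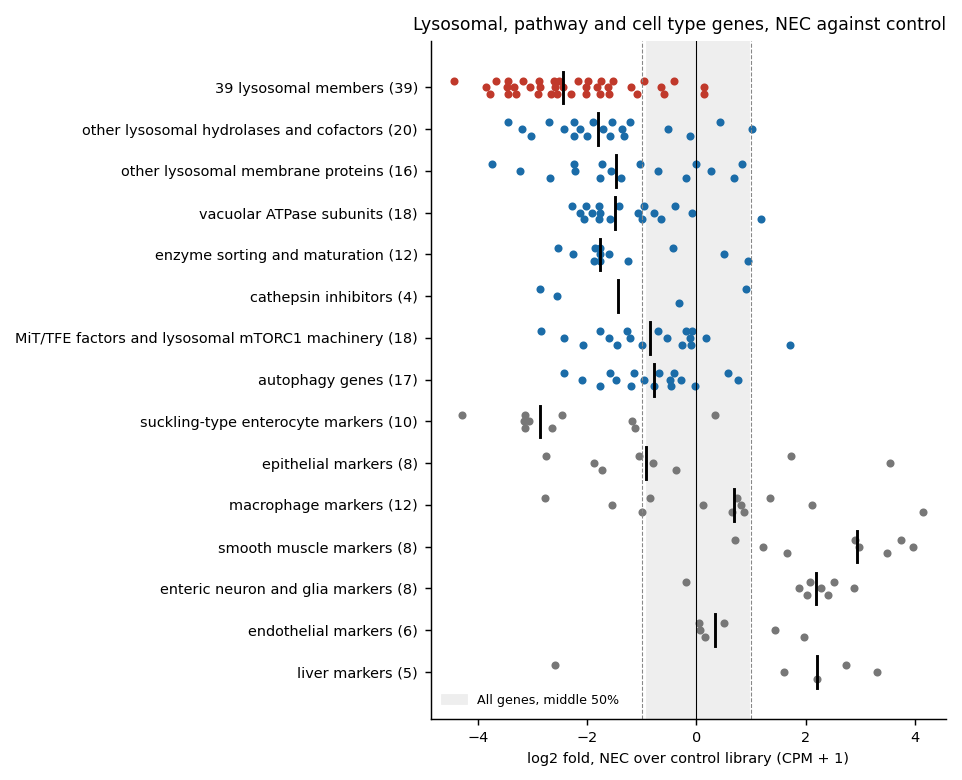
Log2 fold of NEC over control (x axis, CPM + 1) for each measured gene (points) of the 39 lysosomal genes (red), 7 related pathway lists (blue) and 7 cell type marker lists (grey), with the median as a black bar and the number of genes in parentheses; the grey band holds the middle 50% of all genes and dashed lines mark 2-fold. The lysosomal median of -2.45 and the suckling-type enterocyte median of -2.86 lie far left of the band, and the smooth muscle median of 2.94 lies far right.

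Markers of cell types differed between the same libraries, in which 22.9% of all genes measured were lower and 24.2% higher in NEC by 2-fold or more. The 10 suckling-type enterocyte markers, such as the endocytic receptor gene Lrp2, had a summed level of 6012, 1123 and 4993 CPM, given in the order control, NEC, PCI34051+NEC as elsewhere, with 9 of 10 at least 2-fold lower in NEC, 1 within 2-fold and none at 0 counts. Their sum was 5.35-fold lower in NEC, near the median of 5.50-fold for the lysosomal genes, of which 20 were lower than that sum and 19 not as low. The 8 general epithelial markers summed to 6739, 3048 and 7048 CPM, with 4 at least 2-fold lower and 2 higher in NEC and none at 0. This sum was 2.21-fold lower in NEC, and 32 of the 39 lysosomal genes were lower by more than that. Of the 2 higher genes, Krt19, the largest part of the epithelial sum in NEC (20.9%), was at 54.2, 638 and 117 CPM. Krt20, named after its values were seen, was at 15.9, 54.8 and 82.8 CPM. Among the lower genes, Vil1, a brush border marker also named after its values were seen, was at 1015, 492 and 983 CPM. Epcam alone, an epithelial adhesion gene, was 6.75-fold lower, and 14 of the 39 were lower by more than Epcam. The same number was 28 for Cdh1 (3.33-fold lower), 33 for Vil1 (2.06-fold lower) and 26 for Cldn7 (3.70-fold lower). The part of a smaller epithelial share in these differences was not tested.

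Muscle and nerve genes stood the other way, where 24.2% of all genes measured were at least 2-fold higher in NEC and 22.9% lower. The 8 smooth muscle markers summed to 1540.2, 11989 and 1479.8 CPM, with 7 of 8 at least 2-fold higher in NEC and none at 0. The 9 enteric neuron and glia markers summed to 81.2, 447 and 74.8 CPM, with 7 of the 8 measured at least 2-fold higher in NEC. Gfap, named after its values were seen, was at 4, 0 and 3 counts, close to the floor in each library. Macrophages, which are rich in lysosomes, were looked at through 12 markers, which summed to 548, 244 and 267 CPM with none at 0. In NEC their sum was 2.25-fold lower, while the median log2 fold had the other sign, at 0.69. Of the 12, 2 were at least 2-fold lower (Csf1r and Cd68) and 3 higher (Cd163, Itgam and Mrc1, the last named after its values were seen). These macrophage counts were near the shares over all genes. The receptor gene Csf1r, at 406, 58.8 and 160.4 CPM, held most of the control sum, and Cd163 was at 0.440, 24.5 and 4.99 CPM. The 5 liver markers were at 365, 186 and 212 CPM in sum, where 4 genes were higher and Ttr, with most of the sum, lower in NEC, and the 6 endothelial markers at 123, 193 and 125 CPM, with 2 of 6 higher. The part of each in the lysosomal differences was not tested.

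In their exons, the 39 genes were close to other genes in GC content and length. Their median exonic GC content was 51.3% and their median exonic length 4414 bases, against 49.9% and 4374 bases for the genes measured in NEC and control. Exons of 10 of them overlap exons of another gene in the table, by less than 1% (Ctsz) to 34.4% (Ctsd) of their bases, so reads there may have been lost or shared. Ctsl and Arsb overlap genes on the opposite strand that are not rows of the table, Gm47123 with 26.8% of the Ctsl bases and Gm26527 with 32.3% of the Arsb bases.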

How the data were processed

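RNA of mouse intestine was measured in 3 libraries, 1 per group. Per the labels' protocols, RNA was extracted with TRIzol and sequenced on an Illumina NovaSeq as paired-end reads of 150 bp. The authors deposited raw read counts per gene symbol, with mm10 as genome build per the submitters' processing notes; the aligner, counting settings, annotation and strand were not given in the sources used here. Of 21983 symbols, 21926 matched GENCODE M21, the source of identifiers, coordinates and exonic lengths. All 3 count columns were used; the name of the third did not repeat its sample's description letter for letter and was assigned as the column that names the inhibitor.

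Counts were scaled with TMM (edgeR 4.0.16, R 4.3.3). Folds used a pseudocount of 1 CPM, over genes at 1 CPM or more in either library. Ratio intervals were exact conditional binomial (Clopper-Pearson). A count of 3, the floor for a count of 0, equals 0.189, 0.274 and 0.197 CPM in control, NEC and PCI34051+NEC. No molecular identifiers are described, so PCR copies may count more than once, and intervals and floors speak to counting error only. The calculation was tested on simulated data. Members, lists and alternatives were chosen with earlier results of these data known. All 39 members are named; of other lists, up to 4 genes at 5 CPM or more with the largest fold of NEC against control may be named, exceptions are stated, and some are not reported here. Scaling was varied with DESeq2 1.42.0 size factors, with total counts, and with TMM leaving out mitochondrially encoded and the 50 most abundant genes. Other alternatives were thinning to 10650638 counts, pseudocounts of 4 and 0.25, a 1.5-fold threshold, taking out the dependence on GC content and exonic length (30 bins each), and a 5 CPM minimum or none. TMM over control and PCI34051+NEC alone was added after the data were seen. Tables and plots were made in Python 3.11.15 (scipy 1.17.1, numpy 2.4.6, matplotlib 3.10.9, pandas 2.3.3).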

Additional observations from a re-analysis of the deposited data

How the results depend on the processing

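The 33 genes at least 2-fold lower in NEC than in control numbered 32 to 36 under the alternatives, and the 33 at least 2-fold higher in PCI34051+NEC than in NEC numbered 32 or 33. No gene was 2-fold higher in NEC under any of them. A 1.5-fold threshold gave 1 gene lower in PCI34051+NEC than in NEC, and 11 lower and 4 higher in PCI34051+NEC than in control. The shares of all genes called under the alternatives are not given here, so these member counts cannot be read as a trait of the lysosomal genes. Total counts gave 7 genes lower in PCI34051+NEC than in control and a median log2 fold of -0.42. The median of all genes was then -0.18, and -0.14 in PCI34051+NEC against NEC. Removing the trend with GC content and exonic length gave medians of -2.33 for NEC against control and -0.17 for PCI34051+NEC against control, and 1 gene (Ids) lower in PCI34051+NEC than in NEC. A minimum of 5 CPM put the median of all genes at -0.14 in NEC against control and 0.20 in PCI34051+NEC against NEC and left the member counts as they were. No paired analysis was possible because each group has 1 library, and for the same reason no library could be left out. Depth limits Sgsh, Arsb and Idua most, with under 100 counts each in the NEC library.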
